A study of Mus musculus with 8 samples.

Results

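The genes described here are 10 costimulation and checkpoint genes of the immune system, Cd80, Cd86, Cd274, Cd276, Vsir, Cd40, Cd200, Cd47, Sirpa and Havcr2. They were taken by name from an RNA-seq table of the mouse left ventricle, where they are 10 of 55679 genes, and all 10 were among the 19364 genes tested. The rule takes genes by name, but the set was chosen with earlier results of these data known, so its counts are a description. Cd40, Sirpa and Havcr2 encode receptors and the others encode ligands.

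A T cell that meets its antigen needs a further signal from the presenting cell, and the B7 family of surface proteins gives that signal or holds it back. Cd80 and Cd86 engage Cd28 to activate and Ctla4 to restrain T cells, whereas Cd274 (PD-L1), Cd276 (B7-H3) and Vsir (VISTA) are known mostly as brakes. Cd40 on macrophages, dendritic cells and B cells receives the CD40 ligand of T cells, and Cd200 and Cd47 on tissue cells restrain myeloid cells through Cd200r1 and Sirpa. Havcr2 (TIM-3) is an inhibitory receptor of T cells and myeloid cells.

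The libraries came from male wild-type C57BL/6J mice infused for 7 days through a subcutaneous osmotic mini-pump, 4 with saline (control) and 4 with angiotensin II (ANG II, a hormone of the renin system that constricts vessels) at a rate of 1500 ng/kg/min. Hearts were flushed with saline, the left ventricle was taken whole, and polyadenylated RNA was sequenced, so the values average over all cell types of the ventricle. The study calls the libraries biological replicates, and the labels do not tie each to an animal, so the p-values measure the spread between these libraries. The study describes more replicates per group than were analysed here. The extraction text of the labels mentions a cancer cell type, but the summed FPKM of 7 cardiomyocyte markers exceeded that of every other marker list in all 8 libraries.

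Expression is given as FPKM, a fragment count scaled by transcript length and by the depth of the library, and each library held between 14455654 and 16564828 fragments. Changes are log2 fold changes of ANG II against control on the log2(FPKM + 1) scale, with the standard error (SE) of limma, and a gene was called when its Benjamini-Hochberg adjusted p was under 0.05 and its log2 fold change above 0.5 in size. The added 1 makes the change of genes with low values look smaller than it is. Of the 10 genes, 7 were called higher (Cd80, Cd86, Cd276, Vsir, Cd40, Sirpa and Havcr2) and 0 lower, against 14.0% of all genes tested that were called higher. Over all genes 2708 were called higher and 273 lower, and under median-of-ratios scaling 1671 and 804, with 6 of the 10 genes called. Mitochondrially encoded genes took 28.9 to 30.2% of the FPKM of the control libraries and 22.1 to 24.6% of the ANG II libraries. Rescaled without them and the top 10 genes, 7 of the 10 genes were called. Cd200 and Cd47 also rose by the adjusted p, below the fold change threshold, which makes 9 of 10 with an adjusted p under 0.05 and a higher level against 28.4% of all genes. In these same 9 genes every ANG II library lay above every control library, as it did for 28.7% of all genes. Cd274 was the only gene of the 10 without a detected change. The median log2 fold change of the 10 was 0.72, and that of all genes tested was 0.15. In whole tissue, more cells of a type and more RNA per cell cannot be told apart, and this holds for every value given here.

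**Figure D1:**
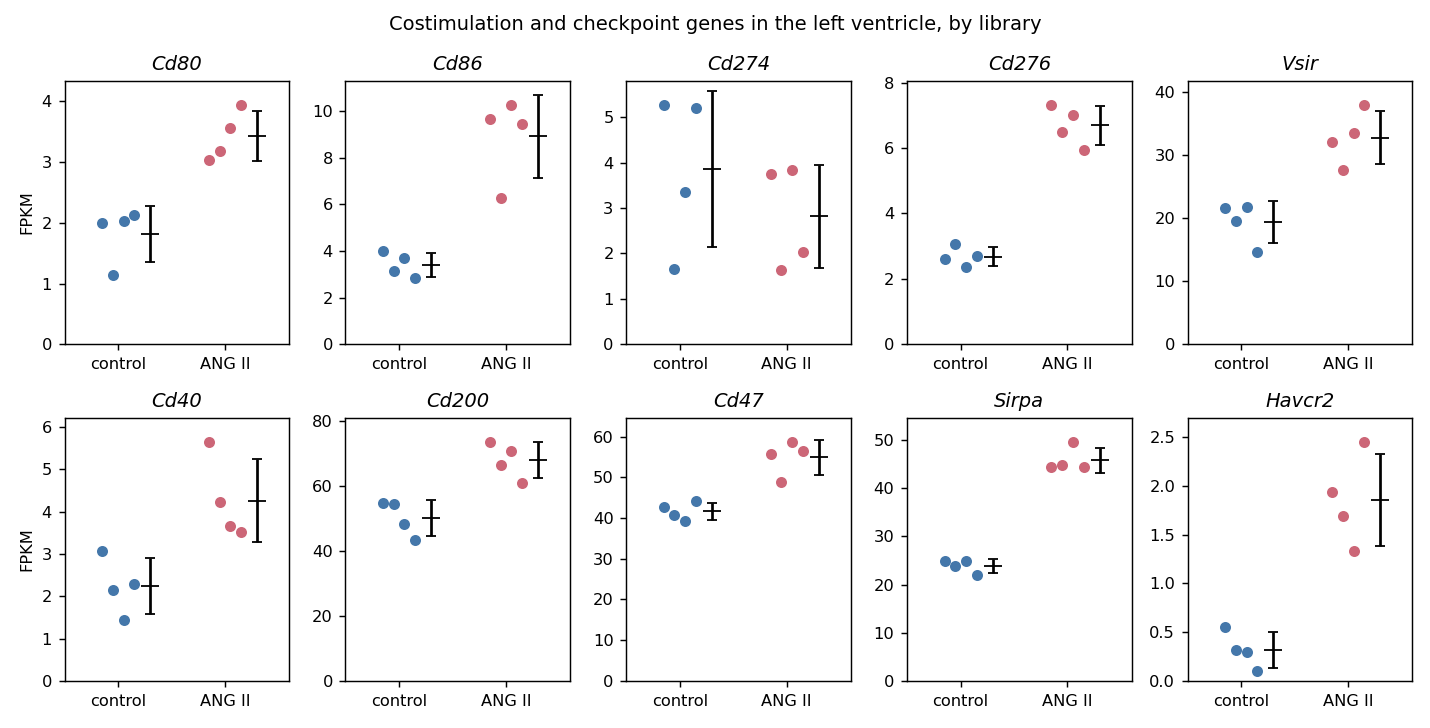
FPKM of each gene (vertical axes, each from 0 on its own scale) in the 4 control (blue) and 4 ANG II (red) libraries, with points in the order of replicate number and a black bar for the mean ± SD. The groups are apart for 9 genes, with the smallest spread relative to the mean in Cd47 and Sirpa, and they overlap for Cd274.

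Cd80 and Cd86 are the ligands shared by Cd28 and Ctla4, and both rose. Cd86 (ENSMUSG00000022901, GRCm38 chromosome 16, 36603869 to 36666081, minus strand) had 3.99, 3.14, 3.69 and 2.83 FPKM in controls 1 to 4 and 9.68, 6.28, 10.3 and 9.45 FPKM in ANG II 1 to 4. The lowest ANG II library, number 2, was still well above the highest control, and the other ANG II libraries lay close together. The mean went from 3.41 ± 0.525 to 8.92 ± 1.79 FPKM (SD, n = 4 per group), which is a log2 fold change of 1.16 (SE 0.150, limma with Benjamini-Hochberg adjusted p = 3.43e-04). This was the largest log2 fold change of the 10 genes on that scale, larger than that of 97.3% of all genes tested. The values rest on 51 to 183 fragments per library.

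Cd80 (ENSMUSG00000075122, chromosome 16, 38455561 to 38496335, plus strand) was lower in level than Cd86 in every library and rose from 1.82 ± 0.462 to 3.43 ± 0.410 FPKM (SD, n = 4 per group). The controls had 1.99, 1.13, 2.03 and 2.13 FPKM and the ANG II libraries 3.03, 3.18, 3.56 and 3.94 FPKM. Control 2 stood below the other controls, which were nearly equal, and the gap to the lowest ANG II library was 0.899 FPKM. The log2 fold change was 0.66 (SE 0.142, limma with Benjamini-Hochberg adjusted p = 0.00568), on 31 to 118 fragments per library. Under median-of-ratios scaling it was 0.50, just under the threshold (limma with Benjamini-Hochberg adjusted p = 0.0290), and under quantile normalization 0.36 (adjusted p = 0.113).

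The mean log2 ratio of Cd86 to Cd80, with 1 FPKM added to each, was 0.65 ± 0.277 in the controls and 1.15 ± 0.269 in ANG II (SD, n = 4 per group). The ranges of the groups overlapped and the difference of 0.49 did not pass the test (exact two-sided permutation test, p = 0.0571, adjusted over 5 ratios 0.0952). The 2 receptors of these ligands, named after their values were seen, were not higher in ANG II. Cd28 had 0.848 ± 0.239 FPKM in control and 0.646 ± 0.174 in ANG II, and Ctla4 had 1.78 ± 0.140 and 1.12 ± 0.219 FPKM (SD, n = 4 per group). Ctla4, the inhibitory receptor, fell by 0.40 on the log2 scale with groups apart (SE 0.109, limma with Benjamini-Hochberg adjusted p = 0.0186), which is below the fold change threshold.

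Cd276 and Vsir, B7 proteins known mostly as brakes on T cells, were also higher in ANG II. The study, however, lists Cd276 among immune stimulators. Cd276 (ENSMUSG00000035914, chromosome 9, 58524298 to 58555437, minus strand) had 2.60, 3.08, 2.36 and 2.70 FPKM in the controls and 7.32, 6.50, 7.03 and 5.96 FPKM in the ANG II libraries. Both groups were compact and the gap between them was wider than either group's own range. The mean rose from 2.68 ± 0.298 to 6.70 ± 0.603 FPKM (SD, n = 4 per group), which is a log2 fold change of 1.06 (SE 0.0990, limma with Benjamini-Hochberg adjusted p = 5.92e-05). An opposite-strand gene, Gm10657, covers 11.4% of the exon length of Cd276, and the use of strand in counting is not given in the sources used here, so its reads could not be told apart there.

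Vsir (ENSMUSG00000020101, chromosome 10, 60346851 to 60372684, plus strand) had the highest level of the B7 genes in both groups. Its FPKM was 21.7, 19.5, 21.8 and 14.6 in the controls and 32.2, 27.7, 33.5 and 38.0 in the ANG II libraries. Control 4 was the lowest and ANG II 4 the highest, and no control reached the lowest ANG II library. The mean rose from 19.4 ± 3.37 to 32.8 ± 4.25 FPKM (SD, n = 4 per group), with a log2 fold change of 0.74 (SE 0.132, limma with Benjamini-Hochberg adjusted p = 0.00209). A known partner of VISTA, P-selectin glycoprotein ligand (Selplg), rose from 4.90 ± 1.33 to 13.8 ± 2.05 FPKM (SD, n = 4 per group; log2 fold change 1.34, SE 0.157, limma with Benjamini-Hochberg adjusted p = 1.99e-04).

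Cd274 (ENSMUSG00000016496, chromosome 19, 29367455 to 29388095, plus strand), the ligand of the PD-1 receptor, was not detectably changed. It had 5.27, 1.66, 3.35 and 5.20 FPKM in the controls and 3.75, 1.64, 3.83 and 2.04 FPKM in the ANG II libraries. The libraries of each group were widely spread and the groups overlapped across most of their range, with the lowest value of both groups in replicate 2. The log2 fold change was -0.32 (SE 0.299, 95% interval -0.99 to 0.35, limma with Benjamini-Hochberg adjusted p = 0.446), and the exact two-sided permutation p was 0.371. Neither a fall to about the lower bound nor a small rise could be told from no change with these libraries. Depth was not low, with 88 to 288 fragments per library. Over 17 alternatives to the processing, Cd274 was called in 0, with log2 fold changes from -0.62 to -0.16. The opposite-strand gene AC119228.1 covers 14.1% of its exon length. Its receptor Pdcd1, read after the values were seen, had 0.134 ± 0.0481 FPKM in the controls and 0.213 ± 0.167 in ANG II (SD, n = 4 per group), and Pdcd1lg2, the other PD-1 ligand, was too low to be tested, at 0.0395 and 0.0469 FPKM.

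The sequences before the start sites are shown for 3 genes with different patterns, namely Havcr2 with the largest ratio of means, Cd276 with a rise of compact groups, and Cd274 without a detected rise. RefSeq (GRCm38.p6) gave start sites for 7 of the 10 genes (Cd80, Cd274, Cd276, Vsir, Cd200, Cd47 and Havcr2), and the 250 bases before each were searched on both strands. Each is written 5′ to 3′ on the strand of the gene, and capitals mark matches to any of 6 short motifs. The RefSeq starts of Cd276, Cd80 and Cd47 lie inside the GENCODE genes whose positions are given here, so their windows do too. Havcr2 lies at chr11:46454681-46454930 (plus strand), Cd276 at chr9:58555034-58555283 (minus strand) and Cd274 at chr19:29367188-29367437 (plus strand).
Havcr2: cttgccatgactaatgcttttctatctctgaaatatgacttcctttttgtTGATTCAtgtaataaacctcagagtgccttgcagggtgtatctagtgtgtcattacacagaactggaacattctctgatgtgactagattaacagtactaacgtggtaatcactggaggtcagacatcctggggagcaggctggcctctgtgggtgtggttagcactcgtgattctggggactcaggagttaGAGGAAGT
Cd276: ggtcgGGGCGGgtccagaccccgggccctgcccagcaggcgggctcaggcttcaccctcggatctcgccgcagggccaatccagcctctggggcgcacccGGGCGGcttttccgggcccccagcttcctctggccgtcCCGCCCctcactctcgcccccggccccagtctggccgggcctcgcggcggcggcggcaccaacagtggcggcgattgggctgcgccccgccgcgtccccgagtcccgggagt
Cd274: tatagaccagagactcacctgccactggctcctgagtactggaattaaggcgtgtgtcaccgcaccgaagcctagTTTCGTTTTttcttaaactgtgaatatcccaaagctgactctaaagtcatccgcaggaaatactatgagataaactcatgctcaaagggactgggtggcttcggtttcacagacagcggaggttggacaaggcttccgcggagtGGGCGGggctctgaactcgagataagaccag
In Havcr2 the capitals are a TGANTCA match (AP-1, found in 6.75% of all 32851 windows of this length) from 200 to 194 bases before the start, and a GAGGAAGT match (PU.1, 2.44% of all windows) in the last 8 bases. The 3 matches in Cd276 are GC boxes (GGGCGG, 32.7% of all windows), in a window with 77.6% G and C and 29 CpG, against a median of 52.4% G and C over all windows. Cd274 holds 1 GC box and, on the minus strand from 175 to 167 bases before the start, a match to AAANNGAAA (IRF, 9.37% of all windows). Of the other windows, Cd80 held an AP-1 match, Cd200 held IRF and GC box matches, and Vsir and Cd47 held GC boxes. GGGNNTTTC (kappaB, 3.72% of all windows) and TTCNNNGAA (GAS, 7.02%) were in none of the windows of these 7 genes. A match shows only that these letters stand there.

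**Figure D2:**
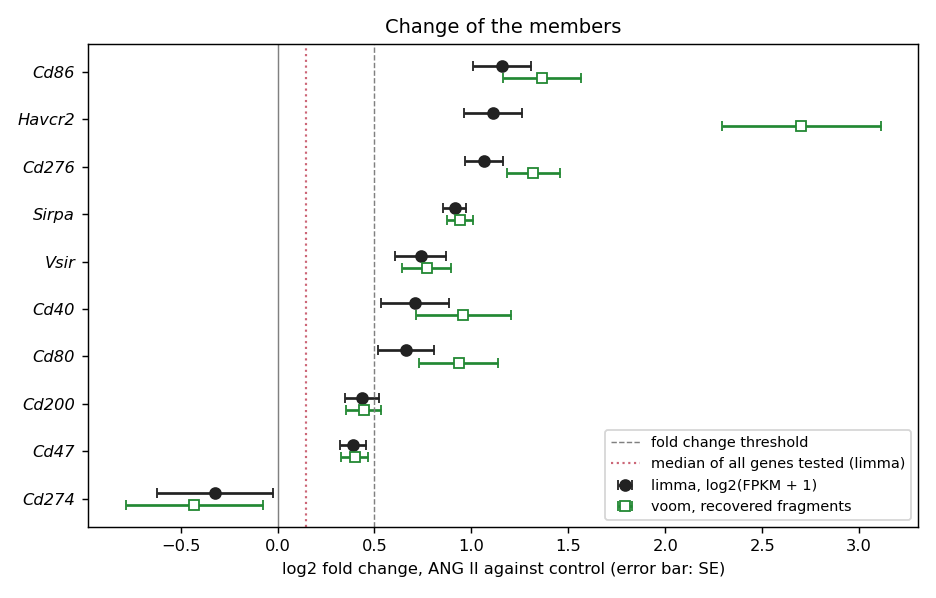
Log2 fold change of each gene, ANG II against control (horizontal axis, bars are SE), from limma on log2(FPKM + 1) (filled circles) and from voom on recovered fragments (open squares), with the 0.5 threshold dashed and the median of all genes tested dotted. Havcr2 moves from 1.11 to 2.70 between the scales, and Cd274 is below 0 on both.

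Cd40 (ENSMUSG00000017652, chromosome 2, 165055627 to 165072948, plus strand), the receptor by which T cells license antigen-presenting cells, had 3.06, 2.15, 1.45 and 2.29 FPKM in the controls and 5.65, 4.22, 3.66 and 3.52 FPKM in the ANG II libraries. The highest control came close to the lowest ANG II library without reaching it. The mean rose from 2.24 ± 0.662 to 4.26 ± 0.976 FPKM (SD, n = 4 per group), which is a log2 fold change of 0.71 (SE 0.175, limma with Benjamini-Hochberg adjusted p = 0.0114). These values rest on 26 to 93 fragments per library, and under quantile normalization the log2 fold change was 0.39 with limma's adjusted p at 0.117. Its ligand Cd40lg, read after its values were seen, was too low to be tested, at 0.0242 FPKM in control and 0.0918 in ANG II. Beside 14.0% of all genes tested that were called higher, 3 of 10 genes that carry the CD40 signal were called higher and 0 lower. These were the adaptor Traf1 (log2 fold change 0.96, SE 0.198), the kinase Map3k14 of the alternative NF-kappaB branch (0.73, SE 0.101) and the ubiquitin ligase Birc3 (0.62, SE 0.114), with limma's Benjamini-Hochberg adjusted p at 0.00445, 5.11e-04 and 0.00251.

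Cd200 and Cd47, the ligands that restrain myeloid cells, had the highest levels of the 10 genes and the smallest rises. Cd200 (ENSMUSG00000022661, chromosome 16, 45382135 to 45409053, minus strand) had 54.8, 54.4, 48.2 and 43.3 FPKM in the controls and 73.7, 66.6, 70.9 and 61.1 FPKM in the ANG II libraries. Cd47 (ENSMUSG00000055447, chromosome 16, 49800533 to 49915010, plus strand) had 42.6, 40.6, 39.3 and 44.1 FPKM in the controls and 55.8, 48.9, 58.8 and 56.4 FPKM in the ANG II libraries. For both genes the groups were apart, by margins of a few FPKM. Log2 fold changes were 0.44 for Cd200 (SE 0.0862) and 0.39 for Cd47 (SE 0.0657), with limma's Benjamini-Hochberg adjusted p at 0.00371 and 0.00154. Under median-of-ratios scaling, which brings the median of all genes to 0.0025, they were 0.21 (limma's adjusted p = 0.0791) and 0.16 (0.0883).

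Sirpa (ENSMUSG00000037902, chromosome 2, 129592835 to 129632228, plus strand), the myeloid receptor of Cd47, was higher in ANG II with little spread. It had 24.9, 23.8, 24.8 and 22.0 FPKM in the controls and 44.5, 44.7, 49.7 and 44.3 FPKM in the ANG II libraries. Each group was narrow apart from ANG II 3, which stood above the other ANG II libraries. The mean rose from 23.9 ± 1.36 to 45.8 ± 2.59 FPKM (SD, n = 4 per group), which is a log2 fold change of 0.91 (SE 0.0608) with the smallest adjusted p of the 10 genes (limma with Benjamini-Hochberg, 9.70e-06).

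Set against its ligand, Sirpa stood at a log2 ratio to Cd47 of -0.78 ± 0.138 in the controls and -0.26 ± 0.0981 in ANG II (SD, n = 4 per group). The groups were apart, and the difference of 0.52 had the smallest p that 4 against 4 allows (exact two-sided permutation test, p = 0.0286), but adjusted over 5 ratios it was 0.0714. Thbs1, an extracellular protein that also binds Cd47, rose from 11.9 ± 5.80 to 55.3 ± 7.19 FPKM (SD, n = 4 per group), which is a log2 fold change of 2.21 (SE 0.247, limma with Benjamini-Hochberg adjusted p = 1.57e-04). Beside 14.0% of all genes tested that were called higher, 7 of 10 genes of SIRPa signalling and phagocytosis were called higher and 0 lower. Among them were the adaptor Fyb (log2 fold change 1.88, SE 0.233), the phosphatase SHP-1 (Ptpn6, 1.45, SE 0.161), which is recruited by Sirpa, and the kinase Ptk2b (1.14, SE 0.0963).

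Cd200r1, the receptor of Cd200, was low and rose from 0.556 ± 0.170 to 1.52 ± 0.584 FPKM (SD, n = 4 per group; log2 fold change 0.68, SE 0.171, limma with Benjamini-Hochberg adjusted p = 0.0129). The log2 ratio of Cd200r1 to Cd200 differed by 0.24 between the groups, within their spread (exact two-sided permutation test, p = 0.257, adjusted over 5 ratios 0.321). It was 0.12 without control 2 and 0.32 without ANG II 2. With 0.1 FPKM added in place of 1, that difference was 0.84 (exact two-sided permutation test, p = 0.0286).

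Havcr2 (ENSMUSG00000020399, chromosome 11, 46454935 to 46481255, plus strand) had the lowest mean level in both groups and the largest ratio of means. It had 0.553, 0.313, 0.299 and 0.0996 FPKM in the controls and 1.93, 1.70, 1.33 and 2.46 FPKM in the ANG II libraries. The controls rest on 21, 12, 13 and 4 fragments and the ANG II libraries on 77, 71, 53 and 103, and no control came near the lowest ANG II library. The log2 fold change was 1.11 (SE 0.149, limma with Benjamini-Hochberg adjusted p = 4.22e-04). Fitted with voom on the recovered fragments, an alternative added after the data had been seen, it was 2.70 (SE 0.409, Benjamini-Hochberg adjusted p = 2.22e-04), since no FPKM is added there. Its ligand galectin-9 (Lgals9) had 28.0 ± 8.37 FPKM in the controls and 33.8 ± 4.41 in ANG II (SD, n = 4 per group), and its log2 fold change of 0.29 did not pass the test (SE 0.168, limma with Benjamini-Hochberg adjusted p = 0.214). The log2 ratio of Lgals9 to Havcr2 fell by 0.82 with groups apart (exact two-sided permutation test, p = 0.0286, and 0.0714 adjusted over 5 ratios). With 0.1 FPKM added in place of 1, that difference was -2.02.

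**Figure D3:**
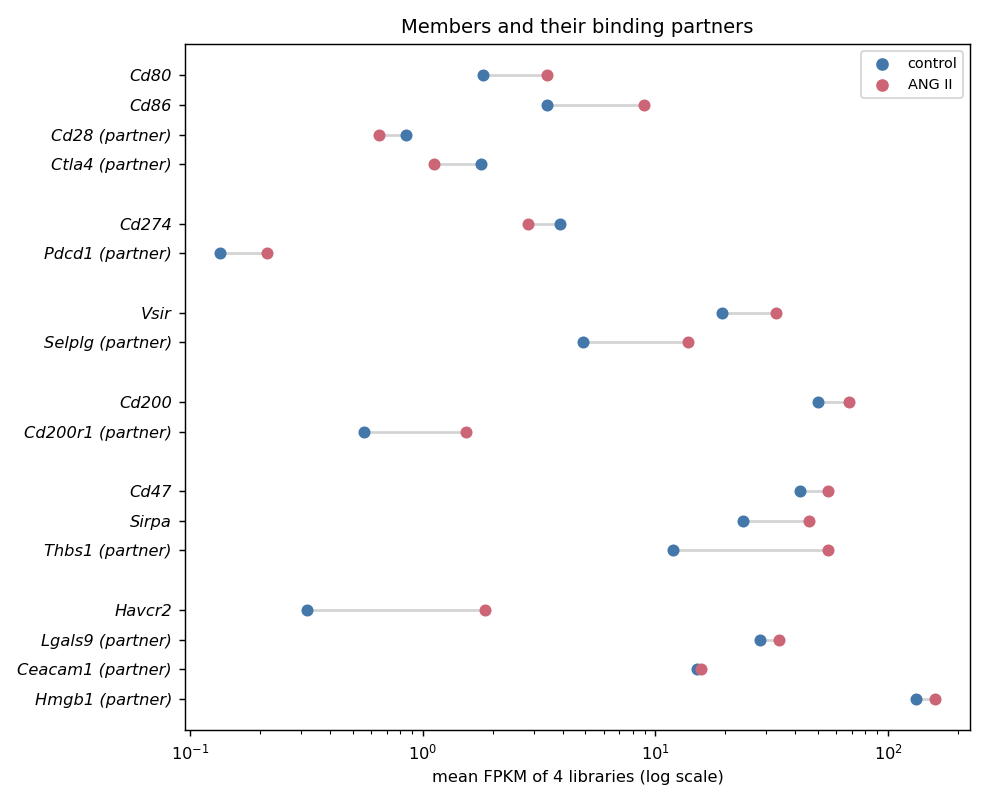
Mean FPKM of 4 libraries in control (blue) and ANG II (red) on a log axis for 8 of the 10 genes, grouped with binding partners that are not among the 10. Cd28, Ctla4 and Cd274 are the only rows in which the ANG II mean lies to the left of the control mean.

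In the controls the levels ran, from high to low, Cd200, Cd47, Sirpa, Vsir, Cd274, Cd86, Cd276, Cd40, Cd80 and Havcr2. Cd200 and Cd47 overlapped, as did each neighbouring pair from Cd274 to Cd80. The first 4 genes lay between 19.4 and 50.2 FPKM and the others at 3.87 FPKM or less. In ANG II the same 4 genes stayed on top in the same order, and Cd274 stood just above Havcr2 by its mean. Cd47 and Sirpa overlapped there, as did Cd86 and Cd276, and each neighbouring pair in the run Cd40, Cd80, Cd274 and Havcr2. The FPKM values divide by the mean length of all annotated transcripts of a gene, which for Cd47 is 3.10 times shorter than the longest. Per length of the longest transcript, Sirpa was above Cd47 in ANG II (22.1 and 17.7) and below it in control (11.5 and 13.4), so the order of these genes depends on the length used, while a gene's ratio between the group means does not.

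Among pathway genes outside the 10, 57 of 63 could be tested, and 23 were called higher and 0 lower, with a median log2 fold change of 0.42. Of all genes 14.0% were called higher, and under quantile normalization 15 pathway genes were. The remaining B7 ligands gave 1 tested gene, Icosl, which was called higher (0.52, SE 0.163). Of 5 T cell receptors listed with the B7 ligands, 1 was called, the inhibitory receptor Btla (0.61, SE 0.126), whose ligand is Tnfrsf14 and no B7 protein, while Cd28, Ctla4, Icos and Pdcd1 were not called. Of 7 tested partners, 3 were called, namely Thbs1, Selplg and Cd200r1. The TNF superfamily gave 1 of 8, the costimulatory receptor Tnfrsf9 (0.74, SE 0.206). Among 16 other checkpoint ligands and receptors, 7 were called higher, led by the inhibitory myeloid receptor Pirb (1.34, SE 0.132), Cd24a (1.28, SE 0.253), a ligand of inhibitory Siglec receptors, and Cd48 (1.25, SE 0.190), a ligand of the receptor Cd244a. For Icosl, Btla, Tnfrsf9, Pirb, Cd24a and Cd48, limma's Benjamini-Hochberg adjusted p ran from 7.97e-05 (Pirb) to 0.0323 (Icosl).

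Several lists of cell type markers were higher in ANG II, and their counts stand beside the 14.0% of all genes called higher. The summed level of 12 macrophage markers ran from 314 to 391 FPKM in control and from 692 to 962 in ANG II, and 11 of 12 were called higher. Neutrophil markers (5 tested, 4 called) ran from 2.58 to 6.79 and from 8.72 to 22.0 FPKM, dendritic cell markers (9 tested, 4 called) from 14.5 to 23.1 and from 22.6 to 30.7 FPKM, and T cell markers (10 tested, 3 called) from 2.79 to 10.6 and from 8.71 to 16.5 FPKM. The sums of the dendritic cell and T cell lists thus overlapped between the groups. All 8 fibroblast markers were called higher, with sums from 410 to 584 FPKM in control and from 1813 to 2058 in ANG II, and of 7 cardiomyocyte markers 2 were called lower. B cell markers (6 tested, 1 called), NK cell markers (4 tested, 0 called) and nerve markers (6 tested, 1 called) had sums under 11 FPKM in every library, and endothelial markers (7 tested, 1 called) ran from 392 to 447 and from 445 to 524 FPKM. No marker of these lists was at 0 in all libraries. Blood and platelet genes (6 tested, 4 called) summed to between 115 and 475 FPKM in control and between 574 and 1975 in ANG II, and atrial genes (3 tested, 1 called) to between 1.16 and 48.8 and between 52.5 and 230.5 FPKM. The part of these cell types and tissues in the changes of the 10 genes was not tested.

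The 10 genes were also set beside the mean of the 12 macrophage markers, which was higher in ANG II by 1.15 on the log2 scale. Each gene's log2(FPKM + 1) was taken minus that mean in the same library and fitted again. This takes the same 1.15 from each log2 fold change, so the order of the genes is the one already given. Only the SE and the distance from the markers are added. Cd86 (0.0053, SE 0.143, 95% interval -0.30 to 0.31) and Cd276 (-0.087, SE 0.141, interval -0.39 to 0.21) did not differ detectably from the markers. Cd274 (-1.47, SE 0.233), Cd47 (-0.76, SE 0.103) and Cd200 (-0.72, SE 0.107) were called lower than the markers, 3 of 10 against 89.7% of all genes tested, since few genes rose as much as the markers did. Cd80 (-0.49), Cd40 (-0.44), Vsir (-0.41) and Sirpa (-0.24) lay between, with adjusted p under 0.05 and sizes under the threshold. With 0.1 FPKM added in place of 1, Cd80 (-0.34, limma with Benjamini-Hochberg adjusted p = 0.176) and Cd40 (-0.33, adjusted p = 0.193) no longer passed, and without ANG II 4 Cd40 had an adjusted p of 0.0535 by limma. Without ANG II 4, Cd80 (-0.58) and Vsir (-0.52) were called too, which makes 5 of 10.

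Havcr2 changed most with the scale in this comparison. It stood at -0.038 (SE 0.185, limma with Benjamini-Hochberg adjusted p = 0.844) with 1 FPKM added and at 1.07 (SE 0.361, adjusted p = 0.0169) with 0.1 FPKM added, so that on the second scale it rose more than the markers did.

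**Figure D4:**
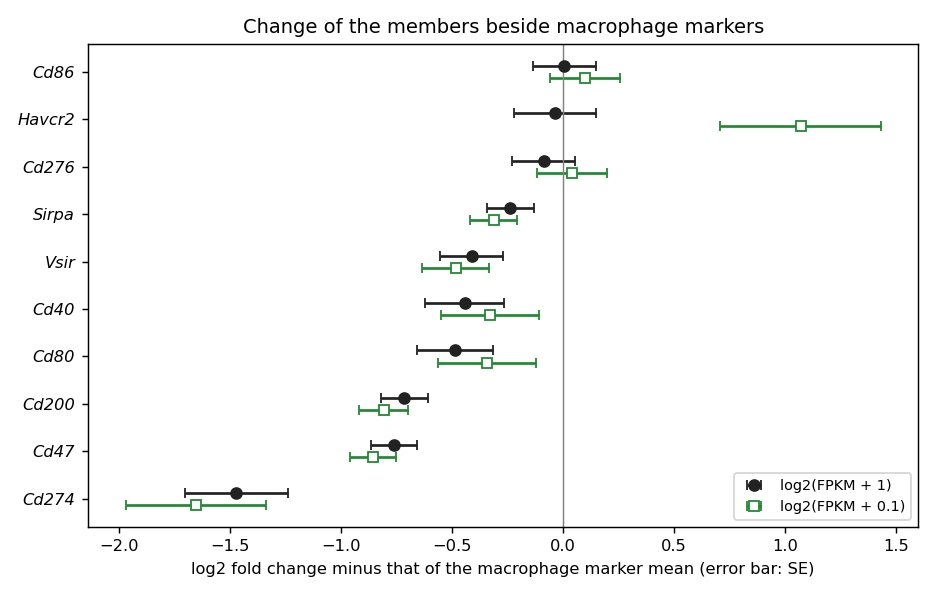
Log2 fold change of each gene minus that of the mean of 12 macrophage markers (horizontal axis, bars are SE), with 1 FPKM (filled circles) or 0.1 FPKM (open squares) added before the logarithm. Cd86 and Cd276 lie at 0 within their SE, Cd274 lies farthest below, and Havcr2 is at -0.038 or 1.07 depending on the amount added.

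For 6 of the 7 called genes, the gene of the lists with the closest profile over the 8 libraries was found by the mean absolute difference of log2(FPKM + 1), each profile centred on its control mean, among 90 candidates. For Cd86 it was Csf1r, the receptor of macrophage colony-stimulating factor (0.123), and for Sirpa it was Itgam, an integrin of myeloid cells (0.0844). Cd276 was closest to the receptor kinase Axl (0.0815), Cd40 to the related kinase Mertk (0.132), Vsir to Cd4 (0.102) and Havcr2 to the lectin Cd209a (0.148). These pairs are the closest by that measure alone, which weighs low genes less because of the added 1 FPKM.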

How the data were processed

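For the 8 libraries the authors deposited 1 table of FPKM values, in which each library has its own column. The submitters' processing notes name Bowtie2, HISAT and RSEM without a role. The genome build, the annotation and the use of strand are not given in the sources used here. No column was left out (0 not used). Gene positions are those of GENCODE M21 (GRCm38), which held 55141 of the 55679 gene IDs.

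All genes whose mean over the 8 libraries reached 0.1 FPKM were tested with limma 3.58.1 (R 4.3.3) on log2(FPKM + 1), with a variance trend and no covariate, two-sided, with Benjamini-Hochberg adjustment over all 19364 genes. The study names limma and these thresholds, and the pseudocount and the filter were chosen here. For single values and ratios, all 70 allocations of the libraries were enumerated (exact two-sided permutation, smallest p 0.0286). The fit was tested on simulated data. Tables were handled in Python 3.11.15 with pandas 2.3.3, numpy 2.4.6 and scipy 1.17.1, and plots drawn with matplotlib 3.10.9.

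Low FPKM values were whole multiples of 1 step per library after multiplication by the mean transcript length, within 0.02 for 98.0 to 98.3% of values under 60 fragments. Fragments per library and per gene were read from these steps, so they are recovered values. Shares of 50-base words found in other genes were at most 1.68% (Cd274) for the 10 genes.

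The pathway and marker lists, like the 10 genes, were chosen with earlier results of these data known. Named are the 10 genes, at most 3 called genes of each pathway list with the largest absolute log2 fold change, the genes of the 5 ratios and the closest list gene of each called one, and any other gene given with values is marked as read after its values were seen. The closest list gene of Cd80 is not reported here. Alternatives changed the pseudocount, the filter, the scaling, the variance trend, the call rule, the replicate number as a block and each library in turn, and voom on recovered fragments was added after the data had been seen.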

Additional observations from a re-analysis of the deposited data

Results flagged for a closer look

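Among the 20 groups of 4 libraries (10 genes in control and in ANG II), 2 held a library whose gap to its neighbour took up more of the group's range than Dixon's 95% critical value allows, and chance flags about 1 group in 20. Cd80 was low in control 2, at 1.13 FPKM, with a gap of 0.865 of the range. Sirpa was high in ANG II 3, at 49.7 FPKM, with a gap of 0.924 of the range. Neither library decided a call of its gene, as both genes were called with each of the 8 libraries left out in turn.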

How the results depend on the processing

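Over the alternatives that keep the call rule, Cd86, Cd276, Vsir, Sirpa and Havcr2 were called in 17 of 17, Cd40 in 16 (not under quantile normalization), Cd80 in 15 (not under median-of-ratios scaling or quantile normalization) and Cd274, Cd200 and Cd47 in 0, and no sign changed for any of the 10 genes. With a log2 fold change above 1 required, 3 of the 10 were called, with 795 genes in all and 10 pathway genes, and with the adjusted p alone 6447 genes in all, against 2981, 23 and 2981. Quantile normalization left 15 pathway genes and 5 of the 10. The higher and lower calls over all genes were 1411 and 984 under quantile normalization and 1976 and 549 without the mitochondrially encoded and top 10 genes, and the median log2 fold change of all genes was -0.044 and 0.053. Relative to the macrophage markers, 3 to 5 of the 10 were called with 1 library left out, 7 by the adjusted p alone and 1 above a log2 fold change of 1. The Sirpa to Cd47 difference was 0.46 to 0.57 and the Lgals9 to Havcr2 difference -0.96 to -0.55 with 1 library left out, where 3 against 4 cannot give an exact permutation p under 0.0571, and with a pseudocount of 0.1 the latter was -2.02 and that of Cd200r1 to Cd200 was 0.84 (0.12 to 0.32 with 1 library left out and a pseudocount of 1). The cause of these shifts was not tested. Fitted with the replicate block, 2968 genes and 7 of the 10 were called. Across genes, the deviations of same-numbered libraries correlated at -0.016, 0.062, -0.032 and -0.0093. Control 2 correlated best with ANG II 2, but control 1 correlated best with ANG II 3 (0.094), so the numbers were not taken as pairs.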

Other observations

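The spread of Cd274 within the groups was read beside 5 genes induced by interferon, chosen after the values of Cd274 were seen. Cd274 was lowest in control 2 and in ANG II 2, and so were 5 of 5 of these genes (Irf1, Gbp2, Iigp1, Cxcl9 and Igtp), against 5.84% of all 19364 genes tested. Igtp, an interferon-induced GTPase, had 39.5, 9.32, 27.3 and 17.8 FPKM in the controls and 27.6, 14.0, 25.2 and 24.6 FPKM in the ANG II libraries. Irf1, a transcription factor of the interferon response, had 23.9, 12.8, 14.9 and 14.9 FPKM in the controls and 26.8, 17.4, 22.9 and 21.3 FPKM in the ANG II libraries. None of the 5 passed the test between the groups, with limma's Benjamini-Hochberg adjusted p from 0.111 (Irf1) to 0.955 (Iigp1). These genes were picked on the same libraries, so the shared low values are a description.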
